A study of Mus musculus with 16 samples.

Results

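The circadian clock genes described here are the 10 genes whose Ensembl identifiers map to the symbols Arntl, Clock, Per1, Per2, Per3, Cry1, Cry2, Nr1d1, Nr1d2 and Dbp, out of 50600 gene identifiers in the deposited count table and 22155 genes with enough reads to be tested. All 10 members passed the minimum of 10 reads over the 16 libraries, and the lowest count of any member in any library was 478 reads. The rule takes the members by name and uses no measured value, but it was set with earlier results of these data known. RNA was sequenced from epidermal cells of the footpad of 16 female C57/B6J mice, 1 library per mouse and 4 mice in each of 4 groups. From 5 weeks of age the mice had received for 3 weeks either a purified diet (labelled SYNTH, AIN-93M) that is poor in ligands of the aryl hydrocarbon receptor (AhR), called the AhR-poor diet, or that diet supplemented with indole-3-carbinol (I3C, 200 ppm), a plant compound that yields AhR ligands, called the I3C diet. On each diet 4 mice received 50 µl of phosphate buffered saline (vehicle) in the footpad and 4 received the same volume with 50 µg of papain, a plant protease used as an allergen, and epidermal cells were collected 6 hr later. Mice of one diet shared cages, so diet and cage cannot be told apart. The time of day at which each mouse was injected and sampled is not given in the sources used here. If groups were sampled at different times of day, that difference cannot be told apart from papain or diet.

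The clock of mammalian cells is a loop of transcription and feedback. Arntl (also called Bmal1) and Clock form a pair of transcription factors that binds E-box sequences and activates the Per and Cry genes, whose proteins then return to the nucleus and inhibit the pair. A further loop runs through Nr1d1 and Nr1d2 (REV-ERB alpha and beta), which repress Arntl from ROR elements, and through Dbp, a PAR bZIP factor that acts on D-box sequences and whose own transcription follows the Arntl and Clock pair closely. AhR belongs to the same family of bHLH-PAS proteins as Arntl and Clock. In skin the clock is known for daily rhythms in the division and DNA repair of keratinocytes.

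Promoter sequences taken from RefSeq (GRCm38.p6) show which of these control elements lie close to the start of the members. A window of 250 bases before to 50 bases after each start site was on hand for 9 of the 10 members, with more than 1 window for Arntl, Clock and Per1. The letters searched, on both strands, were CACGTG for the E-box, TTATGTAA for the D-box, TAGGTCA for the ROR element core and GCGTG for the AhR element core. None of the 4 motifs overlapped another in the matches described. Per3 held the D-box at 2 places, starting 205 and 158 bases before its start site, while 1.11% of the 27025 genes with a promoter held it at all. The E-box was found in Per1 (166 bases before the start) and Cry1 (60 bases before it), against 8.09% of all genes. Arntl held the ROR element core, 30 bases after the start site of its second window, against 2.97% of all genes. The AhR element core was common, in 35.2% of all genes, and it was present in 8 members. The windows of Clock, Cry2, Nr1d1, Nr1d2 and Dbp held none of the first 3 motifs in these letters. The stretches upstream of Per3, Per1 and Cry1 are printed because they carry the D-box and E-box matches, the Arntl site because it carries the ROR element core, and the Dbp stretch because Dbp showed the largest difference of all members. Each is written 5′ to 3′ on the strand of the gene, and capitals mark the matches to the first 3 motifs.
Per3, chr4:151044666-151044915, minus strand: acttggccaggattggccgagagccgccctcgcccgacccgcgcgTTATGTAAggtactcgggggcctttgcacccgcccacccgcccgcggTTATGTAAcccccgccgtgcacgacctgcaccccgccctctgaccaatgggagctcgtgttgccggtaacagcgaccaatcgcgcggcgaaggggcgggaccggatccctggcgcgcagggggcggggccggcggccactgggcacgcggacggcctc
Per1, chr11:69098699-69098948, plus strand: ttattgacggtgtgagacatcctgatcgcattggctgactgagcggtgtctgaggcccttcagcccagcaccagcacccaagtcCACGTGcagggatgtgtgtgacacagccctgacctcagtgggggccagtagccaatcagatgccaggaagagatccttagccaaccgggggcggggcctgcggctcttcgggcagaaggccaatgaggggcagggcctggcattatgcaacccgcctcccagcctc
Cry1, chr10:85185055-85185304, minus strand: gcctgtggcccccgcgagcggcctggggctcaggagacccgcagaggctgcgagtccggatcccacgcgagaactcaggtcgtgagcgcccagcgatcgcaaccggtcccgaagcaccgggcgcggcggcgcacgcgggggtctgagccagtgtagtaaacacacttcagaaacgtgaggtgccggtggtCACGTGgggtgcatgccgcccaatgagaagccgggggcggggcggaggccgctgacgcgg
Dbp, chr7:45704997-45705246, plus strand: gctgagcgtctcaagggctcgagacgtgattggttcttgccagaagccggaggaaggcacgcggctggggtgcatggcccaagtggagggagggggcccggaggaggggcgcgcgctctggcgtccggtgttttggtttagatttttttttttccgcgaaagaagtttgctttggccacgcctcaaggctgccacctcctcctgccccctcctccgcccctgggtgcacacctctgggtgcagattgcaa
Arntl site, chr7:113207531-113207557, plus strand: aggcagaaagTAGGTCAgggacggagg

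The libraries held between 22500821 and 51844375 reads on genes. Levels are given as CPM, that is reads of a gene per 1000000 reads of its library, after scaling of library sizes with the trimmed mean of M values (TMM), and the 4 values of a group are listed in the order of the library codes. Keratinocyte markers were abundant in each group: the summed level of 7 basal markers was between 21069 and 37271 CPM in every library and that of 8 suprabasal markers between 24474 and 65789 CPM. In bulk RNA, fewer cells of a type and less RNA per cell cannot be told apart. Each library came from a separate mouse, so the p-values measure the spread between mice. With 4 libraries against 4 the exact permutation test cannot give a p below 0.0286, which is the value it gave wherever groups of a member are said not to overlap.

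Per kilobase of exon, Nr1d1 was the most abundant member in each of the 4 groups. With vehicle on the AhR-poor diet its mean level was 134 CPM per kb. Dbp followed with 72.5 CPM per kb, Per1 with 37.9, Nr1d2 with 30.9 and Cry2 with 15.1 CPM per kb, and among these 5 genes no library of one overlapped a library of its neighbour. The levels of Cry1 (8.57 CPM per kb), Clock (7.16), Per3 (5.96), Per2 (5.82) and Arntl (4.29) came next, and each of these neighbours overlapped. With vehicle on the I3C diet the first 5 genes stood in the same order, although there Per1 and Nr1d2 overlapped. With papain Dbp moved from the second to the third place on both diets, at 29.4 CPM per kb on the AhR-poor diet and 26.1 on the I3C diet, and its libraries overlapped those of Per1, which stood above it.

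**Figure D1:**
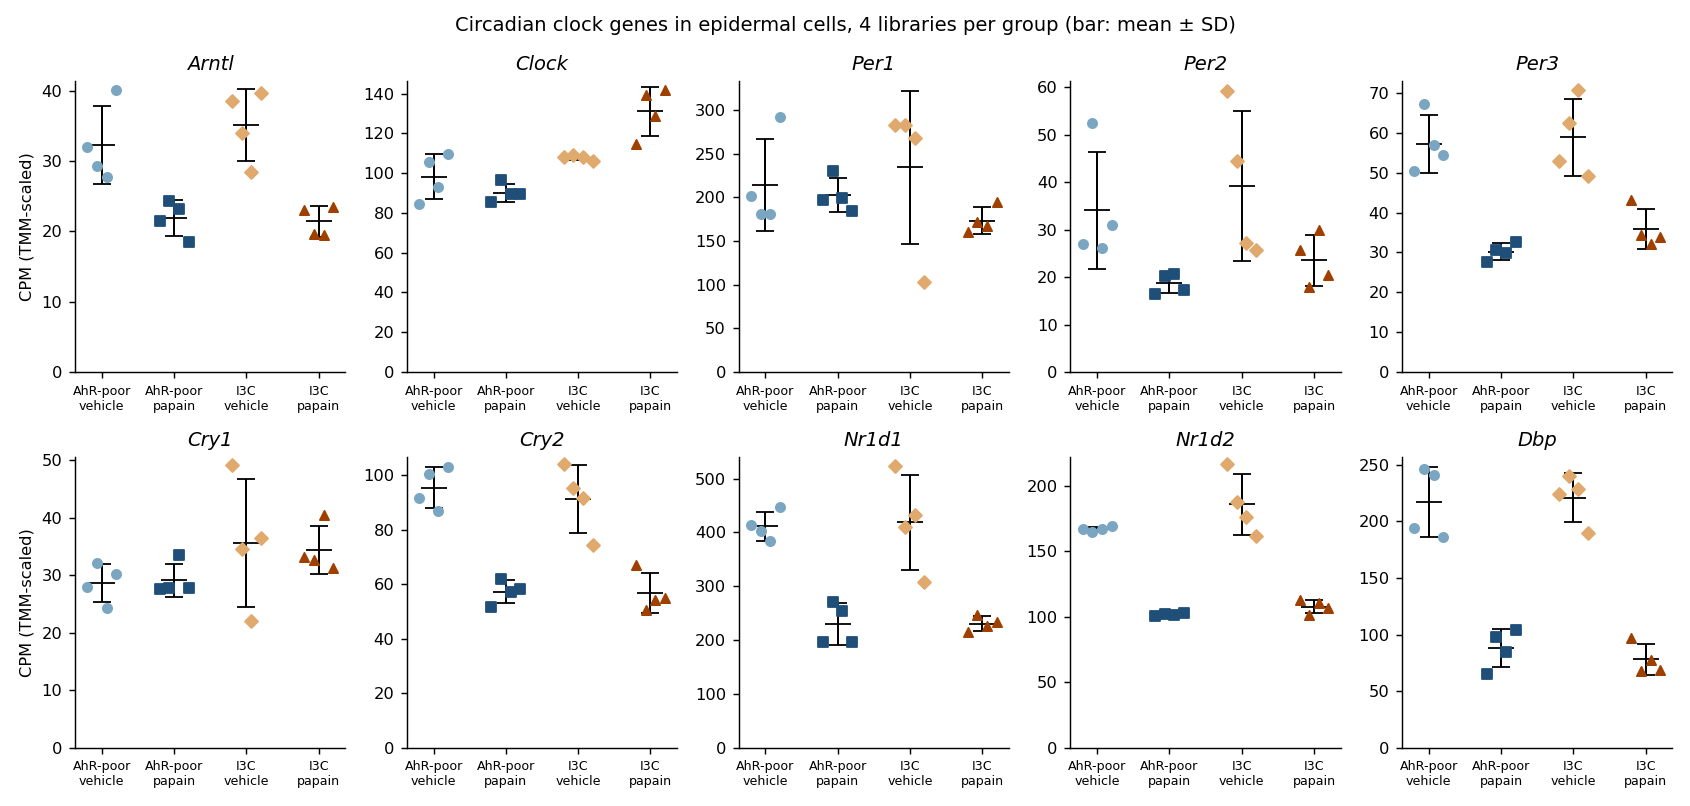
Level of each clock gene (CPM after TMM scaling, linear axis from 0) in the 4 libraries of each group, with the mean and SD as bars. Dbp, Nr1d1, Nr1d2, Cry2, Per3 and Arntl lie lower with papain than with vehicle on both diets with no overlap between libraries, Cry1 does not separate, and 1 library of the I3C vehicle group stands alone at 102.9 CPM for Per1.

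The first question was how the epidermal clock genes responded to papain. Most of the loop was lower 6 hr after papain, on either diet. At an adjusted p below 0.05 in edgeR, which is what "fell" and "rose" mean below, 7 of the 10 members fell and none rose on the AhR-poor diet, where 15.7% of all genes tested fell and 17.7% rose. On the I3C diet 6 members fell and 1 rose, against 18.4% and 16.9% of all genes. The 6 that fell on both diets were Arntl, Per3, Cry2, Nr1d1, Nr1d2 and Dbp. The stricter rule that the study used, an adjusted p below 0.01 together with a log2 fold change beyond 1, was met by Dbp on each diet and by no other member, against 2.42% of all genes lower by that rule on the AhR-poor diet and 5.29% on the I3C diet. In either direction that rule held for 8.46% and 8.98% of all genes. The median log2 fold change over the 10 members was -0.73 on the AhR-poor diet and -0.71 on the I3C diet, beside -0.004 and -0.036 over all genes tested. The mean level of each member was above that of 70.9% to 98.0% of all genes tested. Shares among genes of like level were not taken.

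Of the activating pair, Arntl fell on both diets and Clock on neither. Arntl (chromosome 7, 113207465 to 113314126, plus strand, GRCm38, as all positions here) was at 32.0, 29.3, 27.7 and 40.1 CPM with vehicle and at 21.4, 24.3, 23.2 and 18.5 CPM with papain on the AhR-poor diet. In I3C-fed mice it was at 38.5, 34.0, 28.4 and 39.7 CPM with vehicle and at 23.1, 19.6, 19.5 and 23.4 CPM with papain. Every papain library was therefore below every vehicle library on the same diet, and the log2 fold changes were -0.56 ± 0.13 (SE, adjusted p = 0.00178 in edgeR) and -0.71 ± 0.13 (adjusted p = 1.77e-04).

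Clock (chromosome 5, 76209868 to 76304792, minus strand) was at 84.7, 105.4, 93.1 and 109.9 CPM with vehicle and at 85.7, 96.4, 89.3 and 89.5 CPM with papain on the AhR-poor diet, and these ranges overlapped. The difference was -0.12 ± 0.08 on the log2 scale (95% interval -0.29 to 0.05, adjusted p = 0.282 in edgeR). On the I3C diet Clock was at 108.05, 109.42, 107.89 and 105.96 CPM with vehicle and at 114.7, 139.2, 129.0 and 141.7 CPM with papain. There Clock rose, the one member to do so, by 0.28 ± 0.08 on the log2 scale (adjusted p = 0.0111 in edgeR), and the lowest papain library was above the highest vehicle library.

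The repressors did not move as one group. Per3 and Cry2 fell on both diets, Per2 fell on the AhR-poor diet, and Per1 and Cry1 did not pass the test on either diet. Per3 (chromosome 4, 151003652 to 151044665, minus strand) was at 50.3, 67.2, 57.0 and 54.4 CPM with vehicle and at 27.5, 30.6, 29.9 and 32.7 CPM with papain on the AhR-poor diet. In I3C-fed mice its levels were 52.9, 62.4, 70.8 and 49.2 CPM with vehicle and 43.1, 34.4, 32.2 and 33.8 CPM with papain. The groups did not overlap on either diet, and the log2 fold changes were -0.92 ± 0.12 (adjusted p = 8.37e-06 in edgeR) and -0.71 ± 0.12 (adjusted p = 8.14e-05). This is the gene whose upstream stretch, printed above, holds the D-box at 2 places. Whether that motif has a part in the fall of Per3 was not tested.

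Cry2 (chromosome 2, 92403646 to 92434043, minus strand), which encodes a cryptochrome that inhibits the activating pair, was at 91.53, 100.30, 86.81 and 102.95 CPM with vehicle and at 51.6, 62.0, 57.3 and 58.1 CPM with papain on the AhR-poor diet. With I3C in the diet it was at 104.002, 95.19, 91.62 and 74.32 CPM with vehicle and at 67.1, 50.4, 54.2 and 55.0 CPM with papain. The libraries were apart on both diets, with log2 fold changes of -0.74 ± 0.10 (adjusted p = 2.03e-05 in edgeR) and -0.69 ± 0.10 (adjusted p = 2.92e-05). Cry2 shares 295 exonic bases with D930015M05Rik on the opposite strand, a transcript with a mean of at most 0.0488 CPM in any group.

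Its paralog Cry1 (chromosome 10, 85131700 to 85185064, minus strand) was at 27.9, 32.1, 24.3 and 30.2 CPM with vehicle and at 27.6, 27.8, 33.4 and 27.7 CPM with papain on the AhR-poor diet. In I3C-fed mice it was at 49.2, 34.6, 22.0 and 36.4 CPM with vehicle and at 33.1, 32.7, 40.4 and 31.2 CPM with papain. The ranges overlapped on both diets. The log2 fold changes of Cry1 were 0.02 (95% interval -0.34 to 0.39) and -0.05 (-0.41 to 0.32), so that a fall as large as the one seen in Cry2 lay outside both intervals.

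Per2 (chromosome 1, 91415982 to 91459324, minus strand) was among the least abundant and most scattered members. On the AhR-poor diet it was at 27.0, 52.4, 26.1 and 30.9 CPM with vehicle and at 16.5, 20.2, 20.7 and 17.3 CPM with papain, with no overlap and a log2 fold change of -0.87 ± 0.28 (adjusted p = 0.0292 in edgeR). Without any one of the libraries T104, T112 (papain) or T101 (vehicle) the adjusted p rose to between 0.064 and 0.0938. On the I3C diet Per2 was at 59.2, 44.4, 27.2 and 25.8 CPM with vehicle and at 25.8, 18.0, 29.9 and 20.4 CPM with papain. These groups overlapped, and the log2 fold change of -0.73 ± 0.28 missed the threshold (95% interval -1.34 to -0.13, adjusted p = 0.0569 in edgeR, exact permutation p = 0.143). In 7 of the 23 alternative settings this value passed, and without I3C vehicle library T108 it was -0.46 (adjusted p = 0.193).

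Per1 (chromosome 11, 69095217 to 69109960, plus strand), an early-response member of the loop that is also induced by glucocorticoids, was at 201.9, 180.9, 180.7 and 291.3 CPM with vehicle and at 196.3, 230.3, 199.7 and 184.4 CPM with papain on the AhR-poor diet. The log2 fold change there was -0.08 with a wide interval, from -0.62 to 0.46. On the I3C diet Per1 was at 282.9, 282.9, 268.2 and 102.9 CPM with vehicle and at 160.2, 171.3, 166.8 and 194.9 CPM with papain. The first 3 vehicle libraries were above all papain libraries and the last, T111, was below them all. With T111 the log2 fold change was -0.43 ± 0.25 and did not pass (adjusted p = 0.209 in edgeR), and without T111 it was -0.68 and passed (adjusted p = 8.51e-04). Library T111 was also the lowest of its group for Per2, Per3, Cry2, Nr1d1, Nr1d2 and Dbp. It was the lowest for Clock too, by a narrow margin (105.96 CPM against 107.89 CPM in T110). Its Arntl level of 39.7 CPM was the highest of the group. Its total of 32932350 reads was within the range of the other libraries. The 6 members that fell on both diets still fell on the I3C diet without it.

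Both nuclear receptors fell on both diets. Nr1d1 (chromosome 11, 98767932 to 98775333, minus strand) was at 413.0, 402.5, 383.2 and 446.6 CPM with vehicle and at 196.4, 271.4, 253.3 and 197.0 CPM with papain on the AhR-poor diet. Mice on the I3C diet had 524.0, 410.0, 433.2 and 307.5 CPM with vehicle and 214.4, 246.8, 226.4 and 234.5 CPM with papain. The groups were apart on each diet, with log2 fold changes of -0.84 ± 0.13 (adjusted p = 7.66e-05 in edgeR) and -0.86 ± 0.13 (adjusted p = 4.58e-05). Nr1d1 shares 263 exonic bases, 8.55% of its exonic length, with Thra on the opposite strand. Thra, a thyroid hormone receptor, itself fell, with log2 fold changes of -0.62 (AhR-poor diet, adjusted p = 4.56e-05 in edgeR) and -0.43 (I3C diet, adjusted p = 0.00112). The strand setting of the counting is not given in the sources used here, so reads in the shared bases cannot be assigned to one gene of the pair, and how far each adds to the other was not tested.

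Nr1d2 (chromosome 14, 18204054 to 18239127, minus strand) varied least among the mice on the AhR-poor diet. There it was at 167.1, 165.1, 167.0 and 169.2 CPM with vehicle and at 100.80, 102.01, 101.36 and 102.93 CPM with papain, an SD of 1.66 and 0.913 CPM. In I3C-fed mice it was at 216.5, 188.0, 176.6 and 162.1 CPM with vehicle and at 112.5, 101.7, 110.5 and 106.5 CPM with papain. The log2 fold changes were -0.72 ± 0.07 (adjusted p = 8.86e-07 in edgeR) and -0.79 ± 0.07 (adjusted p = 1.46e-07), the smallest adjusted p of any member on each diet.

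Dbp (chromosome 7, 45705088 to 45710203, plus strand) had the largest response. With vehicle on the AhR-poor diet it was at 193.8, 246.2, 241.2 and 186.7 CPM, and with papain at 65.6, 97.5, 84.7 and 104.4 CPM. Levels on the I3C diet were 224.7, 240.2, 228.5 and 189.8 CPM with vehicle and 97.3, 68.1, 77.6 and 69.0 CPM with papain. On both diets the highest papain library was far below the lowest vehicle library. The level fell by 59.4% on the AhR-poor diet (log2 fold change -1.30 ± 0.15, adjusted p = 3.78e-06 in edgeR) and fell by 64.7% on the I3C diet (-1.50 ± 0.15, adjusted p = 4.52e-07). Dbp shares 539 exonic bases, 18% of its exonic length, with Sphk2 on the opposite strand. Sphk2, a sphingosine kinase, was at 67.3 CPM with vehicle and 59.9 CPM with papain on the AhR-poor diet, and its log2 fold changes of -0.17 and -0.09 did not pass the test (adjusted p = 0.11 and 0.432 in edgeR).

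**Figure D2:**
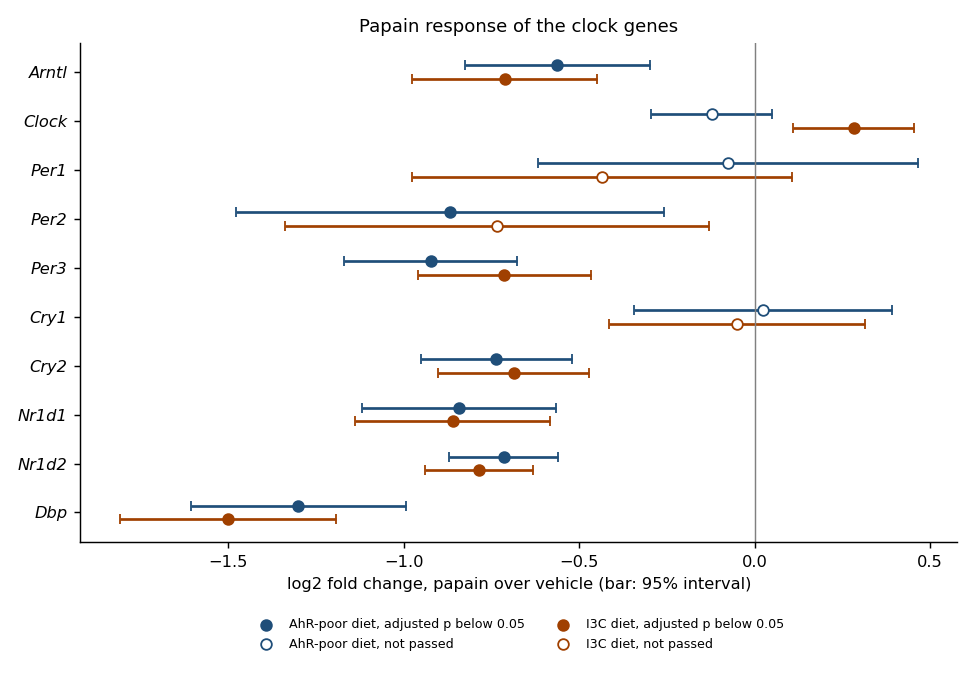
Log2 fold change with papain over vehicle for each clock gene on the AhR-poor and the I3C diet, with 95% intervals; filled points passed an adjusted p of 0.05. Dbp lies farthest to the left at -1.30 and -1.50, and Clock on the I3C diet is the one filled point to the right of 0, at 0.28.

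Markers of other cells moved with papain as well. The shares over all genes beside the counts below were 15.7% fallen and 17.7% risen on the AhR-poor diet. On the I3C diet they were 18.4% and 16.9%. On the AhR-poor diet 11 of 12 dermal fibroblast markers rose, and their summed level was between 180.7 and 268.6 CPM with vehicle and between 456.9 and 843.6 CPM with papain. On the I3C diet 1 of these 12 markers rose and 1 fell, and the sum was between 87.8 and 113.4 CPM with vehicle and between 169.4 and 180.5 CPM with papain. Most of the sum on the I3C diet was Thy1, which is also on the T cell list and rose on both diets. Without Thy1, left out after the values were seen, the other 11 markers summed to between 109.96 and 191.90 CPM with vehicle and between 280.02 and 673.33 CPM with papain on the AhR-poor diet, and to between 20.10 and 25.00 CPM and between 11.96 and 25.99 CPM on the I3C diet. None of the 12 was at 0 throughout a group. Of 9 neutrophil markers 8 rose on the AhR-poor diet (sums of 9.57 to 11.7 CPM with vehicle and 87.6 to 569.2 CPM with papain) and 4 on the I3C diet (1.64 to 4.77 CPM and 50.9 to 92.3 CPM). Ly6g was at 0 in both vehicle groups and with papain on the I3C diet, as was Camp in both I3C groups and Ngp with papain on the I3C diet. Of 7 monocyte and macrophage markers, none of them at 0 throughout a group, 5 rose on the AhR-poor diet (49.2 to 59.3 CPM with vehicle and 115.5 to 537.1 CPM with papain) and none on the I3C diet (19.5 to 28.5 CPM and 11.3 to 38.4 CPM). Of 8 suprabasal keratinocyte markers 2 fell on each diet, and of 7 basal markers 2 fell on the AhR-poor diet while 3 fell and 1 rose on the I3C diet. Of 6 T cell markers Thy1 alone rose on each diet, with sums of 75.2 to 105.2 CPM (vehicle) and 164.7 to 227.2 CPM (papain) on the AhR-poor diet and of 82.4 to 106.8 CPM and 160.6 to 183.5 CPM on the I3C diet. Of 5 pericyte and smooth muscle markers Acta2 rose on both diets (2.35 and 1.90 on the log2 scale), and Tagln rose on the AhR-poor and fell on the I3C diet. Their sums were 3.41 to 7.76 CPM and 21.6 to 24.2 CPM on the AhR-poor diet, and 3.75 to 7.72 CPM and 8.71 to 21.1 CPM on the I3C diet. Of 6 Langerhans cell markers Epcam alone rose on each diet (0.78 and 0.75) and none fell, and their median log2 fold changes were 0.09 and -0.004. Cd207 was lower without passing, at -0.71 on the AhR-poor diet (33.7 against 55.2 CPM, adjusted p = 0.1225 in edgeR) and -0.36 on the I3C diet (adjusted p = 0.467). Mfge8 was lower too without passing (-0.25 and -0.36). Of the endothelial and adipocyte markers Cdh5 and Fabp4 rose on the AhR-poor diet (1.83 and 2.23).

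With the mean level of the fibroblast markers as a covariate, Dbp still fell on the AhR-poor diet but at an adjusted p of 0.0127 in edgeR, so that no member met the stricter rule there, and Per2 no longer passed (-0.47, adjusted p = 0.717). All 7 members that fell on the AhR-poor diet except Per2 still passed with that covariate, at adjusted p between 0.00832 and 0.0431 in edgeR. The covariate, a mean of log2 CPM, lay between 2.24 and 3.11 with vehicle and between 3.78 and 4.90 with papain on the AhR-poor diet, without overlap, so in a call lost with it the markers and papain cannot be told apart. The part of the other markers in these results was not tested.

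The next question was whether diet alone moved the clock genes. With vehicle none of the 10 members passed an adjusted p of 0.05, where 3.08% of all genes did, nor the stricter rule, which 1.59% of all genes met. None of the members had an unadjusted p below 0.05 either. DESeq2, run as the other test, also passed none. The log2 differences, AhR-poor over I3C, were between -0.31 (Cry1) and 0.06 (Cry2), and their 95% intervals together covered -0.80 to 0.41. The interval of Dbp was from -0.33 to 0.28, and that of Nr1d1 from -0.30 to 0.25. Nr1d2 came closest, with a log2 difference of -0.15 (unadjusted p = 0.0508, adjusted p = 0.404 in edgeR). Without I3C vehicle library T110, which had the lowest Cry1 level at 22.0 CPM, the Cry1 difference was -0.50 and passed (adjusted p = 0.041). With vehicle 10 of the 12 fibroblast markers were higher on the AhR-poor diet. So were 8 of 8 endothelial, 3 of 7 monocyte and macrophage, 3 of 6 Langerhans cell, 1 of 9 neutrophil, 2 of 5 skeletal muscle and 1 of 2 adipocyte markers. With the fibroblast markers as a covariate no member passed. That covariate lay between 2.24 and 3.11 (AhR-poor diet) and between -0.64 and -0.13 (I3C diet), so it cannot be told apart from diet. The part of the other markers was not tested.

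With papain 1 member differed between the diets at an adjusted p of 0.05, where 20.7% of all genes did in either direction and 8.36% were lower on the AhR-poor diet. This was Clock, whose 4 libraries on the AhR-poor diet, between 85.7 and 96.4 CPM, were all below the 4 on the I3C diet, between 114.7 and 141.7 CPM. The log2 difference of Clock was -0.54 ± 0.08 (adjusted p = 1.16e-04 in edgeR), short of the fold change in the stricter rule, which no member met and 7.24% of all genes did. With the fibroblast markers as a covariate the difference was -0.10 and did not pass (adjusted p = 1 in edgeR). That covariate lay between 3.78 and 4.90 (log2 CPM) on the AhR-poor diet and between -1.13 and 0.13 on the I3C diet, so it nearly coincides with diet, and what the lost call owes to it and to diet cannot be told apart. The same holds for every diet difference given with this covariate. With papain Per3 averaged 30.2 ± 2.12 CPM (SD, n = 4) with the AhR-poor diet and 35.9 ± 4.92 CPM with the I3C diet, a log2 difference of -0.25 whose adjusted p of 0.15 in edgeR did not pass. For Dbp the difference was 0.17 (95% interval -0.13 to 0.48) and for Nr1d1 -0.01 (-0.28 to 0.27). Markers of other cells stood apart here too. With papain 11 of the 12 fibroblast markers were higher on the AhR-poor diet, among them Dcn (160.7 against 2.15 CPM) and Pdgfra (21.8 against 0.234 CPM), and Thy1 was the exception (165.2 against 156.7 CPM, adjusted p = 0.736 in edgeR). Also higher there were 8 of 8 endothelial, 7 of 7 monocyte and macrophage, 7 of 9 neutrophil, 5 of 6 Langerhans cell and 3 of 6 T cell markers. The same held for 4 of 5 skeletal muscle, 2 of 5 pericyte and smooth muscle, 1 of 2 adipocyte and 1 of 8 suprabasal markers. Of 7 basal keratinocyte markers 4 were lower on the AhR-poor diet, among them Itga6 (-0.47) and Trp63 (-0.39), and 1 was higher. The part of these markers in the Clock difference was not tested.

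**Figure D3:**
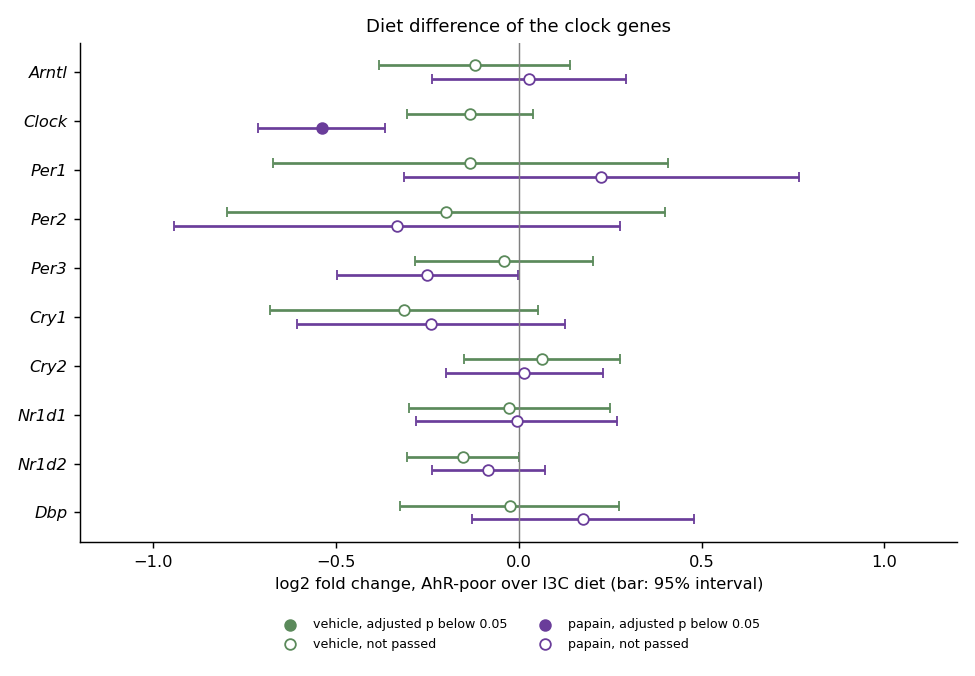
Log2 difference between the AhR-poor and the I3C diet for each clock gene, with vehicle and with papain, with 95% intervals; filled points passed an adjusted p of 0.05. All intervals with vehicle include 0, and Clock with papain, at -0.54, is the one filled point.

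Whether papain acted differently on the 2 diets was tested as the interaction of diet and papain, which uses all 4 groups. No member passed an adjusted p of 0.05 in edgeR or in DESeq2, where 0.329% of all genes did, or the stricter rule, met by 0.0181% of all genes. Clock alone had an unadjusted p below 0.05, with a log2 difference between the responses of -0.40 ± 0.12 (unadjusted p = 0.0026, adjusted p = 0.146 in edgeR). This value passed without AhR-poor vehicle library T100 (-0.46, adjusted p = 0.0491) and without I3C papain library T106 (-0.45, adjusted p = 0.0481). For Dbp the interaction was 0.20 (95% interval -0.23 to 0.63), and for Per1 it was as uncertain as from -0.41 to 1.12. Each papain response shares 4 libraries with each diet difference, so these comparisons are not independent of one another.

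Partners of the loop outside the 10 members were taken from lists of known clock factors. Of 11 paralogs and other clock factors 6 fell and 1 rose on each diet, and the median log2 fold changes were -0.74 and -0.69. Among all genes tested 15.7% fell and 17.7% rose on the AhR-poor diet, and 18.4% fell and 16.9% rose on the I3C diet. Hlf and Tef, the PAR bZIP paralogs of Dbp that bind the same D-box, fell together with it. Hlf was at 164 ± 27.5 CPM (SD, n = 4) with vehicle and 49.2 ± 7.09 CPM with papain on the AhR-poor diet, and at 192 ± 18.1 CPM and 47.4 ± 12.2 CPM on the I3C diet. The log2 fold changes of Hlf were -1.74 ± 0.16 (adjusted p = 6.84e-07 in edgeR) and -2.02 ± 0.16 (adjusted p = 7.46e-08), larger than that of any of the 10 members. Tef went from 288 ± 28.4 CPM to 143 ± 13.7 CPM on the AhR-poor diet and from 303 ± 21.3 CPM to 155 ± 19.8 CPM on the I3C diet, with log2 fold changes of -1.01 ± 0.10 (adjusted p = 3.83e-07) and -0.97 ± 0.10 (adjusted p = 3.02e-07). Bhlhe41, a repressor that competes for the E-box, fell too, with log2 fold changes of -0.76 (AhR-poor diet, adjusted p = 5.78e-04 in edgeR) and -1.40 (I3C diet, adjusted p = 7.93e-07). With the fibroblast covariate the fall of Bhlhe41 on the AhR-poor diet was -0.92 and missed the threshold (adjusted p = 0.0558). In the papain groups Bhlhe41 was higher by 0.63 with the AhR-poor diet (adjusted p = 0.00614), a difference that did not pass with the fibroblast covariate (0.21, adjusted p = 1). The remaining members of the list that passed, named after their values were seen, were Npas2, Rora and Ciart, which fell on both diets, and Arntl2, the paralog of Arntl, which rose by 0.42 (adjusted p = 0.0151) and by 0.60 (adjusted p = 8.23e-04). On the AhR-poor diet Rora, Ciart and Arntl2 did not pass with the fibroblast covariate (adjusted p = 0.216, 0.317 and 0.092 in edgeR), nor did Arntl2 without library T104 (0.0548). In the papain groups 2 of the 11 factors were higher with the AhR-poor diet and 1 was lower, where 20.7% of all genes differed in either direction. Beside Bhlhe41 these were Rorb, named after its values were seen and at a mean of 0.0943 against 0.00714 CPM, and Rora. Rora was lower by 0.44 (adjusted p = 0.0167 in edgeR). Nfil3, which opposes Dbp at the D-box, did not pass on either diet (0.31 and -0.34).

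Of 11 regulators of clock proteins 3 fell and 2 rose on each diet, and the median log2 fold changes were -0.12 and -0.21. Over all genes tested 15.7% fell and 17.7% rose on the AhR-poor diet, and 18.4% fell and 16.9% rose on the I3C diet. Whether the counts of this list differ from those shares was not tested. Named after its values were seen, Btrc, a subunit of the ubiquitin ligase that marks PER proteins for breakdown, fell on both diets, by 0.68 and 0.84 on the log2 scale. Csnk1d, a kinase of PER proteins, rose by 0.25 and 0.41 on the log2 scale. Of those that passed on 1 diet, Gsk3b fell and Timeless rose on the AhR-poor diet, and Fbxl21 fell and Nono rose on the I3C diet. Fbxl21 was barely detected there, at a mean of 0.178 CPM with papain and 0.414 CPM with vehicle. On the AhR-poor diet Csnk1d, Gsk3b and Timeless did not pass with the fibroblast covariate (adjusted p = 0.104, 0.761 and 0.272 in edgeR). Gsk3b did not pass without T103 (adjusted p = 0.0581 in edgeR). Timeless did not pass without any 1 of T103, T104, T105 and T112 (up to 0.0894) or in the fit to the 8 libraries compared (0.0507). Nono did not pass without any 1 of T111, T113 and T114 (up to 0.0896) or with library size alone (0.109). In the papain groups 3 of the 11 regulators were lower with the AhR-poor diet, as were 8.36% of all genes, and none was higher. They were Csnk1d (-0.25, adjusted p = 0.0112 in edgeR), Gsk3b (-0.28, 0.0256) and Nono (-0.21, 0.0273).

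Of 8 genes listed as clock outputs 3 rose and 1 fell on the AhR-poor diet, and 2 rose and 3 fell on the I3C diet. The shares over all genes were 17.7% risen and 15.7% fallen on the AhR-poor diet, and 16.9% and 18.4% on the I3C diet. Whether the counts of this list differ from those shares was not tested. The median log2 fold changes of the 8 genes were 0.07 and -0.31. Por, the electron donor of microsomal cytochromes P450, rose by 0.86 ± 0.12 (adjusted p = 1.50e-05 in edgeR) and by 1.09 ± 0.12 (adjusted p = 6.53e-07) on the log2 scale. Tspan4, a tetraspanin, rose by 1.86 and 1.36, and Lonrf3 fell by 0.89 and 1.29. With the fibroblast covariate Lonrf3 on the AhR-poor diet was at -0.94 and did not pass (adjusted p = 0.235 in edgeR). Hsd11b1, the enzyme that regenerates active glucocorticoid, was at a mean of 1.62 CPM with papain on the AhR-poor diet and at 0.260 CPM on the I3C diet, a log2 difference of 2.61 ± 0.48 (adjusted p = 6.43e-04 in edgeR) that turned to -4.27 and did not pass with the fibroblast covariate (adjusted p = 1). Named after their values were seen, Wee1 and Cdkn1a, which act on the cell cycle, fell on the I3C diet by 0.72 (adjusted p = 0.00946) and by 0.53 (adjusted p = 8.29e-04).

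Glucocorticoids set the phase of peripheral clocks, so 9 of their target genes were examined beside the members. On the AhR-poor diet 1 rose and 2 fell, where 17.7% of all genes rose and 15.7% fell. On the I3C diet none rose and 3 fell, where 16.9% of all genes rose and 18.4% fell. Whether the counts of this list differ from those shares was not tested. The median log2 fold changes of the 9 genes were -0.08 and -0.52. Klf9, a Krüppel-like factor of the epidermis, was at 70.9 ± 5.59 CPM with vehicle and 43.9 ± 5.26 CPM with papain on the AhR-poor diet (log2 fold change -0.69 ± 0.24, adjusted p = 0.0389 in edgeR), and at 99.0 ± 44.8 CPM and 42.8 ± 2.81 CPM on the I3C diet (-1.21 ± 0.24, adjusted p = 0.00115). On the AhR-poor diet Klf9 did not pass without any 1 of T100, T101, T103, T104, T105 and T112 (adjusted p up to 0.095), with every gene tested (0.065) or with the fibroblast covariate (0.639). Tsc22d3, the gene of the leucine zipper protein GILZ, fell by 0.55 (adjusted p = 0.0105) and by 1.31 (adjusted p = 4.70e-06) on the log2 scale, and with the fibroblast covariate the first was -0.78 and did not pass (adjusted p = 0.134). Named after their values were seen, Fkbp5 rose on the AhR-poor diet (0.71, adjusted p = 0.0451) and Dusp1 fell on the I3C diet (-0.62, adjusted p = 3.61e-04). Fkbp5 was close to the threshold and did not pass without any 1 of 11 libraries (adjusted p up to 0.132 in edgeR). Nor did Fkbp5 pass with library size alone (0.0545), with every gene of at least 1 count tested (0.0783) or with the fibroblast covariate (0.08, adjusted p = 0.958). Pdk4, a kinase of the pyruvate dehydrogenase complex, was higher by 2.20 ± 0.36 (log2) with the AhR-poor diet in the papain groups (adjusted p = 6.85e-04 in edgeR), and this turned to -1.17 and did not pass with the fibroblast covariate (adjusted p = 1). With vehicle Pdk4 was also higher on the AhR-poor diet, at 39.4 against 13.7 CPM (1.52 ± 0.35, adjusted p = 0.0284 in edgeR).

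**Figure D4:**
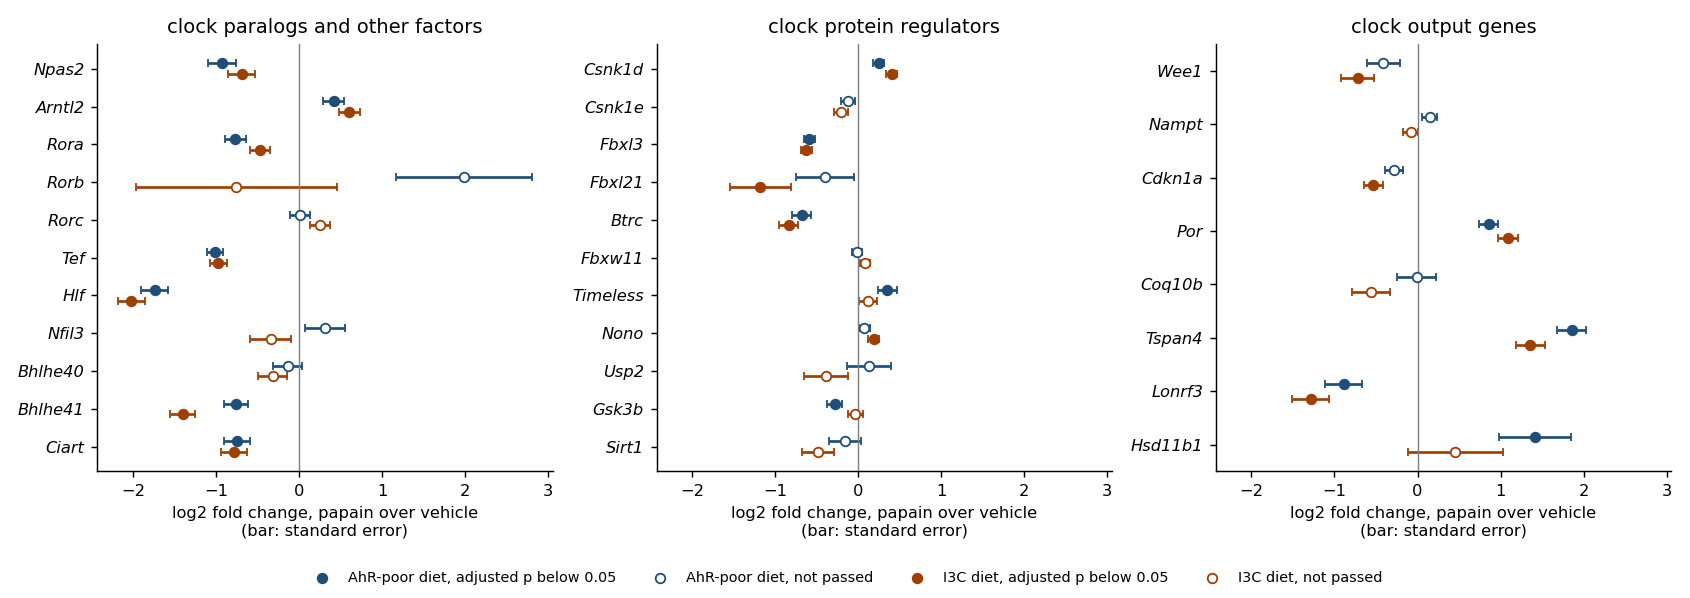
Log2 fold change with papain over vehicle, with standard errors, for the listed clock paralogs and other factors, regulators of clock proteins and clock outputs on the 2 diets; filled points passed an adjusted p of 0.05. Hlf lies at -1.74 and -2.02 and Tef near -1, whereas Por and Tspan4 lie to the right of 0 on both diets.

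The deviations of the members from their group means were compared over the 16 libraries. Of the 45 pairs of members, 2 passed an adjusted p of 0.05 over all 45, and both were positive. Per3 and Dbp gave Pearson's r of 0.725 (permutation p = 9.50e-04, adjusted p = 0.0214) and Spearman's rho of 0.750 (permutation p = 0.00121, adjusted p = 0.0272), and r was 0.720 without the 2 libraries farthest from the median of Per3. Per1 and Nr1d1 gave r of 0.774 (permutation p = 9.40e-04, adjusted p = 0.0214) and rho of 0.750 (permutation p = 6.70e-04, adjusted p = 0.0272). Without libraries T111 and T103 the r of Per1 and Nr1d1 was 0.623. Both pairs had r above 0 within each of the 4 groups. The r of Per3 and Dbp was 0.723 over the vehicle libraries and 0.820 over the papain libraries, and that of Per1 and Nr1d1 was 0.882 and 0.692. Arntl and Dbp, which oscillate in opposite phases in most tissues, gave r of -0.323 and rho of -0.388, which did not pass (permutation p = 0.251 and 0.169, adjusted p = 0.565 and 0.474). Their r was -0.740 over the vehicle libraries and 0.029 over the papain libraries, and was -0.229 without the 2 libraries farthest from the median of Arntl. The median r over the 45 pairs was 0.228, and 7 pairs had r below 0. All genes of a library share its scaling, and each r comes from single mice without replicate libraries.

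**Figure D5:**
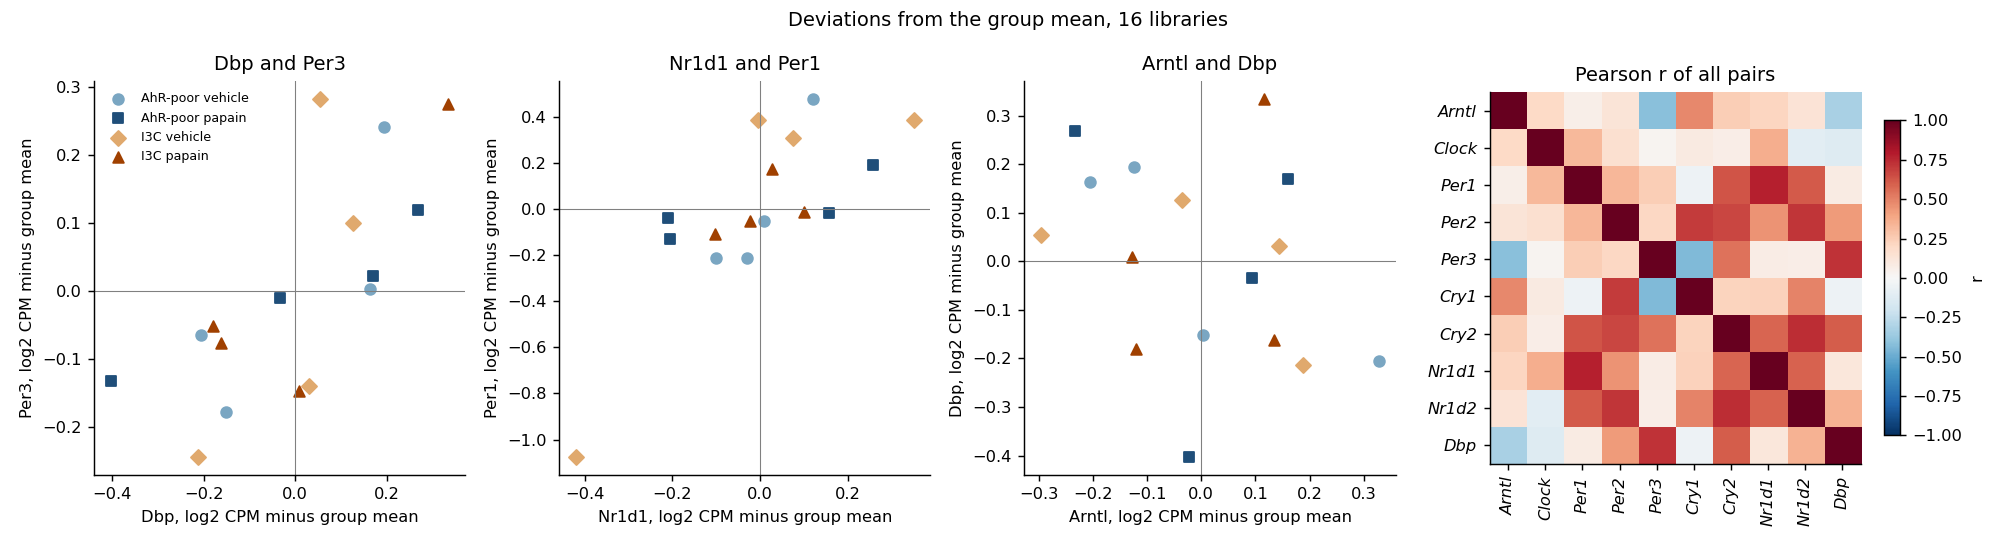
Deviations of log2 CPM from the group mean in the 16 libraries for Per3 against Dbp, Per1 against Nr1d1 and Dbp against Arntl, and Pearson's r of all 45 pairs of members as a colour from -1 to 1. The first 2 pairs slope upward (r of 0.725 and 0.774), library T111 lies alone at the lower left for Per1 and Nr1d1, and Arntl has r below 0 with Per3 and Dbp.

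Among 13016 other genes with a mean of at least 1 CPM, those whose deviations over the 16 libraries were most like those of Dbp were Tef (r = 0.909), Mblac2 (0.878), Gpt (0.868), Sord (0.858) and Idh2 (0.851). The genes most like Arntl were Samd11 (r = 0.855), Trim13 (0.804), Cln8 (0.795), Pkdcc (0.782) and Casc3 (0.773). These values of r are the highest of many and are given as a description without a test.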

How the data were processed

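The authors deposited 1 table of raw read counts per gene for the 16 libraries, without normalization. By the submitters' processing notes and the study's methods, reads were checked with FastQC and aligned with STAR to mm10, and the study's own tests used DESeq2. The counting tool, its strand setting and the annotation release are not given in the sources used here. Groups follow the labels alone, and the library codes (T100 and so on) are the submitters'.

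Genes were tested where their counts summed to 10 or more (22155 of 50600). Of the identifiers 50376 were matched to a symbol. Library sizes were scaled with TMM factors, and 1 mean per group was fitted to all 16 libraries in edgeR 4.0.16 (R 4.3.3) with the robust quasi-likelihood test. Benjamini-Hochberg adjustment ran over all 22155 genes. A gene passed at an adjusted p below 0.05, and met the study's rule at an adjusted p below 0.01 with a log2 fold change beyond 1. Standard errors came from the F statistic. CPM values have counting error only from 478 or more reads per member, so the spread between mice was the limit on precision. Pairs of members were compared on log2 CPM (prior count 2) minus the group mean, with 1e+05 permutations within groups. Positions and exonic lengths come from GENCODE M21 (GRCm38). The fit was tested on simulated counts.

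The members, though taken by name, and the lists were chosen with earlier results of these data known. All 10 members are named in every comparison. From the clock and glucocorticoid lists, the genes that met the study's rule in at least 1 of the 4 comparisons are named, as are the 5 genes most like Dbp and the 5 most like Arntl. Others are said to be named after their values were seen. Alternatives were RLE factors, library size only, 2 other filters on low counts, DESeq2 1.42.0, the 8 libraries compared, the mean log2 CPM of fibroblast markers as a covariate, and each library left out.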

Additional observations from a re-analysis of the deposited data

Results flagged for a closer look

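Of the 40 sets of 4 libraries (10 members in 4 groups), 2 held a library far from the other 3 by Dixon's gap test at the 95% level, and chance alone gives about 2. Per1 was at 102.9 CPM in I3C vehicle library T111, where the other 3 libraries of the group were between 268.2 and 282.9 CPM. Cry1 was at 33.4 CPM in AhR-poor papain library T107, where the other 3 were between 27.6 and 27.8 CPM.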

How the results depend on the processing

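The log2 fold changes of the 10 members in 5 comparisons were refitted under 23 alternatives (22 for the interaction, for which no fit to 8 libraries can be made), 1140 values in all, of which 345 belonged to values that had passed. Of these 345 none changed direction and 340 still passed, and 67 values that had not passed changed sign. By the wider rule (adjusted p below 0.05, any fold) 7 members passed in place of 1 on each diet with papain, and 1 in place of none between the diets with papain. The fibroblast covariate did not overlap between the diets or, on the AhR-poor diet, between treatments. With it 0 members met the study's rule on the AhR-poor diet and 0 passed the wider rule between the diets with papain. That covariate also turned Clock on the AhR-poor diet to 0.048, the diet difference with papain of Hsd11b1 to -4.27 and that of Pdk4 to -1.17, none of which passed. Leaving out 1 library at a time, the number of members that passed the wider rule ran from 0 to 1 both for the diet difference with vehicle (1 without T110) and for the interaction (1 without T100 or T106). Over the same refits the log2 fold changes of Cry1 ran from -0.041 to 0.081 on the AhR-poor diet and from -0.23 to 0.15 on the I3C diet, and that of Per1 on the AhR-poor diet from -0.15 to 0.12. The causes of these changes were not tested. Scaling by library size alone moved the median of all genes from 0.010 to 0.115 on the log2 scale, a move of 0.105, in the diet difference with papain and turned no value that had passed. No paired analysis was possible because the groups share no library code.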
